A study of Mus musculus with 25 samples.

Results

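Small nucleolar RNAs (snoRNAs) are represented by 110 of the 24412 gene symbols measured here, namely every symbol that begins with Snora or Snord followed by a digit: 36 of the H/ACA class (Snora) and 74 of the C/D class (Snord). They were followed through 4 stages of mouse development, in oocytes arrested at the second meiotic metaphase (MII), zygotes at pronuclear stage 3 (PN3), and embryos early (E2C) or late (L2C) in the 2-cell stage. At each stage, material labelled Smarca4 knockout (KO) was compared with wild type (WT), with 2 KO and 3 WT libraries of MII oocytes, 4 of each genotype for PN3, and 3 of each for both E2C and L2C. Smarca4 encodes BRG1, an ATPase that drives the BAF complex to remodel chromatin. Per the labels' protocols, oocytes came from superovulated females aged 8 to 12 weeks, either B6D2F1 hybrids or C57BL/6 animals with both Smarca4 alleles floxed and a Cre driven by Gdf9, a promoter active in oocytes, and were used for sperm injection. The deletion is therefore made in the mother's germ line, and the labels do not state the genotype of the sperm. Which females gave which library is not stated, so strain and genotype cannot be told apart, and nothing states that replicates came from separate animals, so p-values measure the spread between these libraries.

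Most snoRNAs guide chemical changes of ribosomal RNA. Box C/D snoRNAs pair with rRNA and direct 2′-O-methylation by fibrillarin, and H/ACA snoRNAs direct pseudouridylation by dyskerin, while a few, such as U3, U8, U14 and U22, are needed for cleavage of the rRNA precursor. In mammals nearly all lie in introns of other genes, called hosts, and are trimmed out of the spliced intron, so that the host's transcription makes both the host RNA and the snoRNA. Full-grown mouse oocytes are transcriptionally silent and their nucleolus is inactive, and rRNA synthesis resumes in the 2-cell embryo.

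The annotation (GENCODE vM21, build GRCm38) placed 107 of the 110 genes, of which 104 lay within an annotated host on the same strand, in 77 hosts. Of these snoRNA genes, 32 lay in ribosomal protein genes, 49 in other protein-coding genes and 23 in noncoding hosts, and 49 overlapped an exon of some host transcript. The 10 sequences below belong to genes described in the results: the 3 with the highest levels, the one with the largest KO difference called in oocytes, and some of those with the largest rises between stages. Capitals mark the C box (TGATGA, searched in the first 30 bases of C/D genes), the D box (CTGA, last 20 bases of C/D genes) or the ACA box (ACA, last 10 bases of H/ACA genes), on the gene's own strand.
Snora47: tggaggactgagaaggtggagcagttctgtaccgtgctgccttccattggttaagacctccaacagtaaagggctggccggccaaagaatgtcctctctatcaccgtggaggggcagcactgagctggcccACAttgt
Snord15b: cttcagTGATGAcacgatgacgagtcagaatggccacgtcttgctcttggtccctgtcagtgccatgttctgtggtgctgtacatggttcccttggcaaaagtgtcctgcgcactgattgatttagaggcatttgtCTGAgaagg
Snord22: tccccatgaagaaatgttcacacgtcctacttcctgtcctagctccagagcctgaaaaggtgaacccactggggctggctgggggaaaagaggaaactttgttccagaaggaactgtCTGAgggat
Snora44: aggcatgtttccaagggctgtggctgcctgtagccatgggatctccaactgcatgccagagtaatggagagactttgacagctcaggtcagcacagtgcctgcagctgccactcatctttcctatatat
Snord8: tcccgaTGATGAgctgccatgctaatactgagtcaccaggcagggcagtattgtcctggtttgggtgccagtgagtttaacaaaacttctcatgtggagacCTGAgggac
Snora31: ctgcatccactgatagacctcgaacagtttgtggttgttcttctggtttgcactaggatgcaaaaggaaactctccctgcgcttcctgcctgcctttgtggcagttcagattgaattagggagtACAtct
Snord99: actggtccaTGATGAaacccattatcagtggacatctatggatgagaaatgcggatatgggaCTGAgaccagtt
Snora33: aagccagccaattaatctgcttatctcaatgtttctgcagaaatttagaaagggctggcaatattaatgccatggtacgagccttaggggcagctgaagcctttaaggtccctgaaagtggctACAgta
Snord42b: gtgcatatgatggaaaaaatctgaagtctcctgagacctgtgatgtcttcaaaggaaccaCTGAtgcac
Snord96a: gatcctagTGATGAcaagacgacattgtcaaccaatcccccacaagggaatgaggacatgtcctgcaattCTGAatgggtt
Snora47 lies at chr13:95330600-95330737 (plus strand) in an intron of Zbed3. Snord15b lies at chr7:99479563-99479707 (minus strand) in Rps3, and Snord22 at chr19:8725866-8725991 (plus strand) in the noncoding gene Snhg1. Snora44 (chr4:132309941-132310069) and Snord99 (chr4:132310691-132310764) are on the plus strand of another noncoding host, Snhg12. Snord8 (chr14:52209785-52209894, minus strand) is in an intron of Chd8, Snora31 (chr14:75847905-75848034, plus strand) in an intron of Tpt1, Snora33 (chr10:23785347-23785475, minus strand) in Rps12, Snord42b (chr11:78183056-78183124, minus strand) in Rpl23a, and Snord96a (chr11:48802032-48802112, plus strand) in Gnb2l1. Snord15b, Snord22, Snora44, Snord99, Snora33, Snord42b and Snord96a overlap an exon of at least 1 annotated host transcript, whereas Snora47, Snord8 and Snora31 do not. Among the 73 C/D genes placed, 47 (64.4%) held the C box and 71 (97.3%) the D box in these windows, and 32 of the 34 H/ACA genes placed (94.1%) held the ACA box. The same letters in windows of the same length occurred in 0.581%, 9.94% and 9.35% of RefSeq promoter sequences. Snord22, Snord42b and Snora44 each lack 1 exact match, which is a statement about these letters and windows only.

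The libraries were made from total RNA depleted of rRNA, keep strand and were read in pairs of 150 bp, which is longer than most of these genes. The deposited values are FPKM (fragments relative to gene length and library total) for each symbol, so they carry no read counts and depth is unknown. They were rescaled between libraries by a median ratio and are called scaled FPKM below. These values are relative to the other RNAs of a library, and in whole oocytes and embryos fewer cells expressing a gene and less RNA per cell cannot be told apart. Because a snoRNA gene can also collect fragments of the unspliced host, a level here is that of the locus, and how far it is mature snoRNA was not tested. Smarca4 was at or below 0.448 scaled FPKM in the 6 KO oocyte and zygote libraries, against 26.0 to 33.2 in the 7 WT ones. At E2C it had 1.82, 0.767 and 5.12 in KO embryos, against 31.4, 34.9 and 19.0 in WT embryos. At L2C it had 21.0 to 22.5 in KO embryos, against 48.5 to 90.4 in WT embryos. WT E2C replicate 2 had 9345 genes above 0, whereas the remaining 24 libraries had 13585 to 16698. Summed levels of 7 cumulus and granulosa cell markers stayed between 0.388 and 6.56 scaled FPKM in every library. WT L2C replicate 3 stood apart from the other 2 WT L2C libraries: summed oocyte markers were 646 to 897 scaled FPKM in KO L2C embryos, against 779 in WT L2C replicate 3 and 299 and 372 in the other 2, and summed 2-cell embryo markers were 101 to 128 in KO, against 156 in WT L2C replicate 3 and 35.0 and 34.7 in the other 2. Among the oocyte markers, Oosp1 had 384 scaled FPKM in WT L2C replicate 3, against 73.8 and 80.4 in the other 2. Bmp15 had 197, against 78.9 and 98.2. Zp2 was also higher, whereas Gdf9, Zp3 and Nlrp5 lay within the range of the other 2. WT L2C replicate 3 was above its group mean for 9 of the 96 snoRNA genes tested, against 77 and 72 in the other 2. The part of this library in the L2C results was not tested beyond leaving it out.

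The snoRNA genes took a growing share of the FPKM sum. FPKM is relative to gene length, so this is not their share of the fragments or of the RNA mass. Their share of a library's FPKM sum was 0.162% and 0.162% in KO MII oocytes, against 0.135%, 0.167% and 0.156% in WT MII oocytes. At PN3 it was 0.401%, 0.253%, 0.266% and 0.346% in KO zygotes, against 0.251%, 0.258%, 0.275% and 0.339% in WT zygotes. At E2C it was 0.634%, 0.839% and 1.10% in KO embryos, against 1.55%, 1.29% and 0.613% in WT embryos. At L2C it was 1.71%, 1.26% and 1.11% in KO embryos, against 1.89%, 1.77% and 0.980% in WT embryos. In both genotypes every PN3 library lay above every MII library and every E2C library above every PN3 library. E2C and L2C overlapped in WT, and in KO the lowest L2C library stood just above the highest E2C library. Mean shares at L2C were 8.38 times those at MII in KO and 10.1 times in WT. KO and WT overlapped at every stage, the means at E2C being 0.858% ± 0.234 in KO and 1.15% ± 0.483 in WT (SD, n = 3 each). The KO minus WT difference of mean shares at L2C was -0.189 percentage points, and -0.472 without WT L2C replicate 3. The H/ACA and C/D classes contributed about equally, with mean shares of 0.710% and 0.648% in KO L2C embryos and 0.769% and 0.778% in WT L2C embryos.

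**Figure D1:**
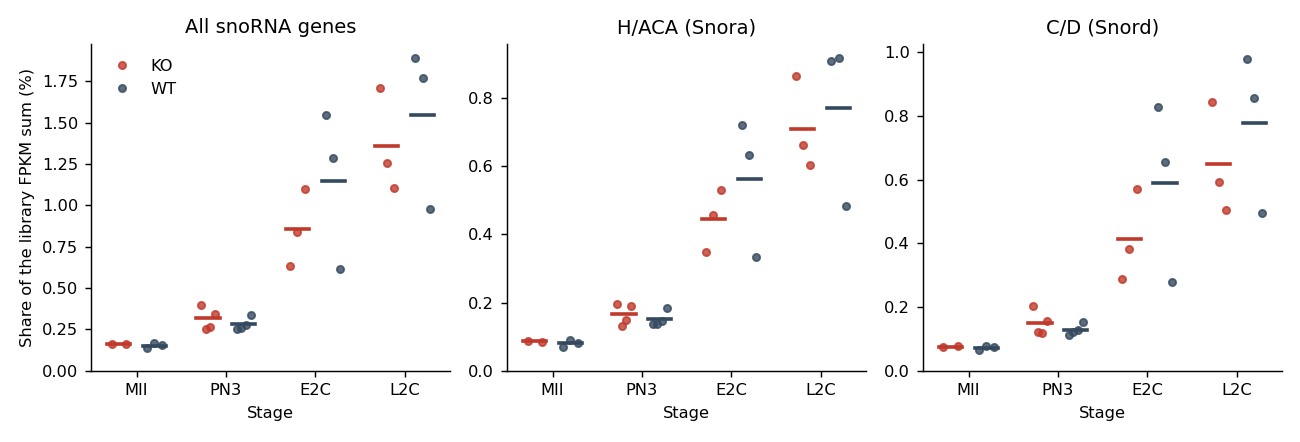
Share of each library's FPKM sum (percent, vertical axis) taken by all 110 snoRNA genes, by the H/ACA class and by the C/D class at 4 stages; points are libraries, bars are group means, KO in red and left of WT in dark blue. The share was at most 0.167% at MII, at most 0.401% at PN3 and at least 0.613% from E2C on.

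Levels were uneven among the genes. Snora47 was the highest of the 110 in every library and made up 13.8% to 22.4% of their summed level. It had 80.9 and 71.8 scaled FPKM in KO MII oocytes, against 69.3, 84.9 and 75.1 in WT MII oocytes. At L2C it had 694.5, 432.1 and 379.0 in KO embryos, against 728.1, 659.3 and 319.3 in WT embryos. Averaged over the stages, Snora47 (mean 297.5 scaled FPKM) was followed by Snord15b (153), a guide of 28S rRNA methylation, by Snord22 (139), the U22 RNA that is needed for 18S rRNA maturation in Xenopus oocytes, and by Snora74a (108) and Snora21 (94.0). The ranges of Snord15b and Snord22 overlapped at MII, PN3, E2C and L2C, so their order is not separated from the spread between libraries.

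Levels were higher in the longer H/ACA class. The 34 H/ACA genes placed in the annotation had a median length of 132 bases and a median level of 9.32 scaled FPKM, and the 73 C/D genes a median length of 80 bases and a median level of 1.97. Spearman's rho between length and level was 0.43 across the 34 H/ACA genes, 0.05 across the 73 C/D genes and 0.36 across all 107, as a description of genes that share libraries. The 11 C/D genes of 100 bases or more had a median level of 3.07, against 1.97 in the 62 shorter ones.

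Of the 110 genes, 59 were above 0 in every library and 2, Snord14c and Snord14d, were at 0 in every library. A level of at least 1 FPKM in at least 3 of the 25 libraries was required for testing, which 96 genes met. The 14 that did not were Snora19, Snora35, Snord1a, Snord1c, Snord7, Snord14a, Snord14c, Snord14d, Snord43, Snord45c, Snord116, Snord116l1, Snord116l2 and Snord118. Just inside this limit, Snord88a, Snord72 and Snord73a had a third-highest library of 1.18, 1.19 and 1.31 FPKM, and just outside it Snord43, Snord1c and Snord45c had 0.660, 0.380 and 0.329. Snord118, the U8 RNA of 28S and 5.8S rRNA maturation, was at 0 in 23 libraries and reached 0.407 scaled FPKM. Snord14a, a copy of U14, which is required for 18S rRNA processing in yeast, was above 0 in 1 library, at 0.00242 scaled FPKM. Near-identical copies can divide or lose reads, and 4 pairs were at least 85% identical over their length: Snord116l1 with Snord116l2 (100%), Snord14c with Snord14d (97.7%), Snord1b with Snord1c (97.4%) and Snord88a with Snord88c (94.4%). Values of these 8 genes are uncertain.

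**Figure D2:**
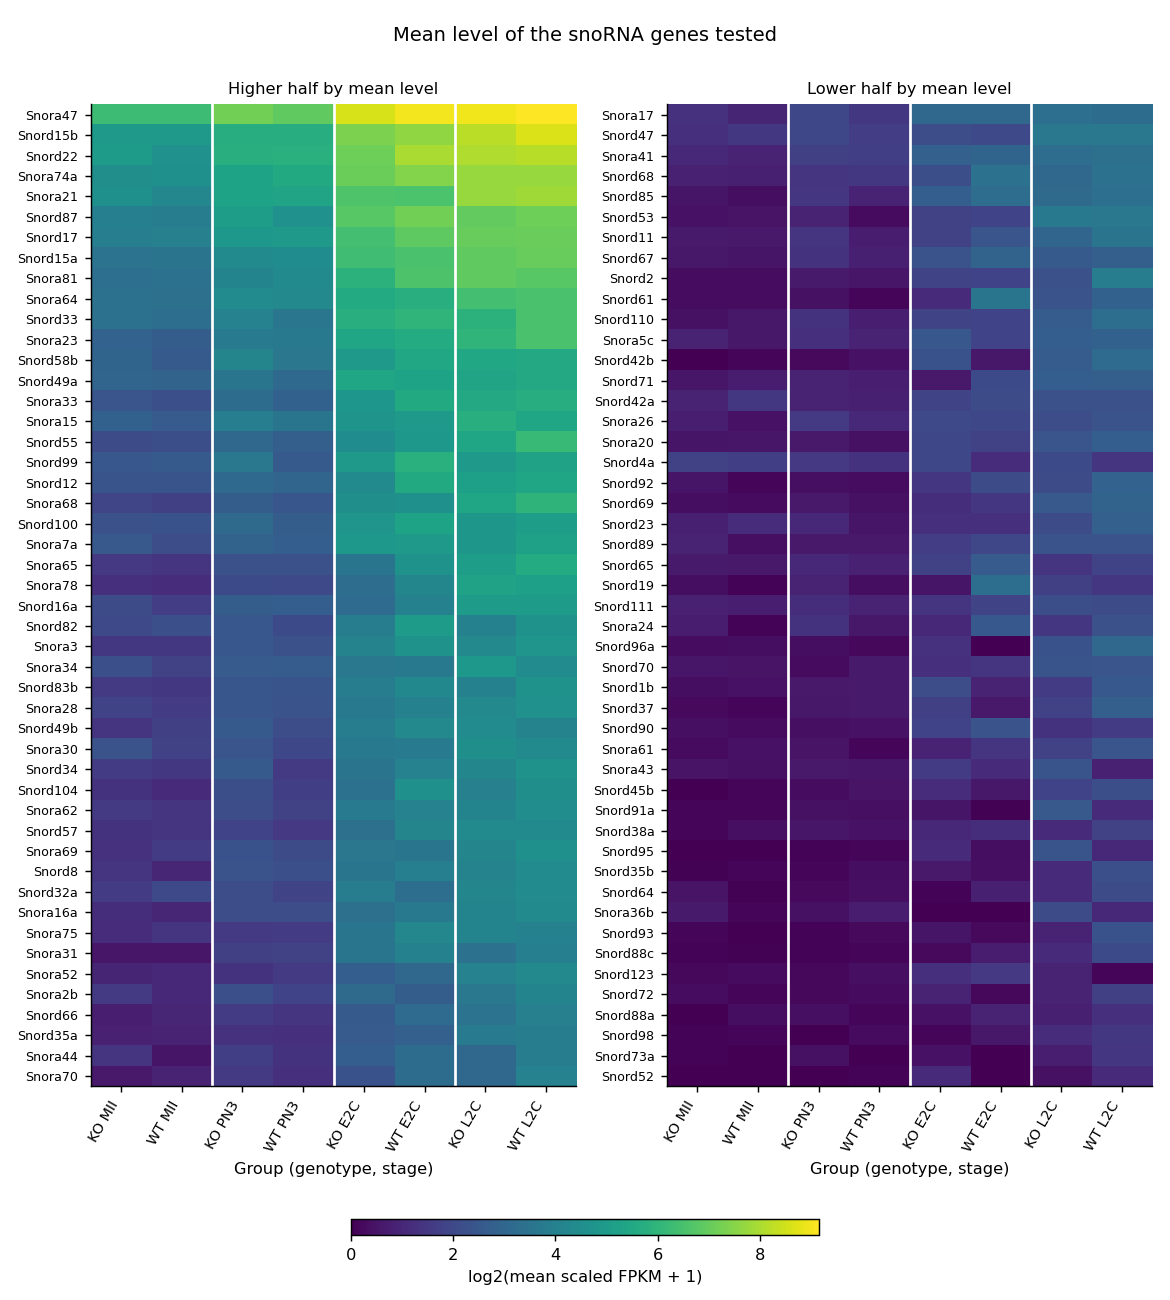
Mean level of each of the 96 snoRNA genes tested in the 8 groups, as log2(mean scaled FPKM + 1) from 0 (dark) to the highest level (yellow), with genes ordered by mean level and, within each stage, KO left of WT. Most rows lighten from MII on the left to L2C on the right, and Snora47 is the brightest row in every group.

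The step from oocyte to zygote was tested first in WT. Differences were fitted with limma on log2(scaled FPKM + 1), with p-values adjusted by Benjamini-Hochberg over all 12086 genes tested, and a gene is called below an adjusted p of 0.05. On simulated data this fit, which shares 1 variance among stages up to a weight for each stage, made more false calls than its threshold allows, so counts from a fit with a separate variance for each stage, chosen after seeing the data, are given beside it. Of the 96 snoRNA genes, 34 were higher and 2 lower at PN3 than at MII, where 19.2% of all genes tested were called higher and 26.0% lower. The median difference of the snoRNA genes was 0.30 on the log2 scale, against 0.00 for all genes. A gene can pass the limit on low values through a later stage alone, so the same count was taken over the 49 that reached 1 FPKM in at least 3 MII libraries: 29 of them were higher and 2 lower at PN3. In KO, 37 of 96 were higher and 0 lower, with 17.6% of all genes tested called higher and 23.1% lower, and 44 snoRNA genes had an unadjusted p under 0.05. Over the same 49 genes, 30 were higher and 0 lower in KO. With a separate variance for each stage, 35 of 96 were higher and 0 lower in KO, and 30 higher and 2 lower in WT, where 17.2% and 23.2% of all genes were called higher and lower in KO and 19.8% and 26.1% in WT. These counts of calls were 18 in KO and 25 in WT with the 2 stages fitted alone, and 1 in KO and 8 in WT with equal weights for all libraries.

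The 3 largest rises in WT were those of Snord8, Snora31 and Snord22. Snord8 had 2.72, 2.85, 4.21 and 4.95 scaled FPKM in WT PN3 zygotes, against 0.806, 0.637 and 1.43 in WT MII oocytes. Snora31 had 3.59, 1.91, 2.92 and 1.41 at PN3, against 0.392, 0.738 and 0.307 at MII. Snord22 had 56.7, 53.3, 45.5 and 66.3 at PN3, against 20.0, 26.9 and 24.6 at MII. In all 3 genes every zygote library stood above every oocyte library. Snora31 was below 1 FPKM in every WT MII library. It did not reach the limit on low values within the MII libraries and passed it through later stages. Their log2 differences were 1.25 ± 0.205, 1.19 ± 0.205 and 1.18 ± 0.134 (SE), with limma adjusted p of 2.47e-05, 4.36e-05 and 1.37e-07. The same genes rose in KO, by 0.91, 1.13 and 0.73. Snord8 overlaps an antisense transcript, and whether counting used strand is not stated in the labels.

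The 2 genes that fell in WT were Snord42a and Snord23, both at low levels. Snord42a had 0.195, 1.37, 0.603 and 0.890 scaled FPKM at PN3, against 1.76, 2.40 and 1.16 at MII, and Snord23 had 0.435, 0.205, 0.343 and 0.809, against 1.83, 1.10 and 0.865. The stages overlapped for Snord42a and did not overlap for Snord23. The log2 differences were -0.67 ± 0.254 and -0.64 ± 0.182 (SE), with limma adjusted p of 0.0355 and 0.00573. The call of Snord42a was lost without WT MII replicate 1 or 2 or WT PN3 replicate 1, 3 or 4, with differences between -0.84 and -0.50 over all single omissions, and with the 2 stages fitted alone (limma adjusted p = 0.0687).

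The largest median difference came between the zygote and the early 2-cell embryo. In WT, 42 of 96 snoRNA genes were higher at E2C than at PN3 and 0 were lower, where 12.9% of all genes tested were called higher and 18.0% lower. The median difference was 1.34 for the snoRNA genes and -0.05 for all genes. Among the 63 that reached 1 FPKM in at least 3 PN3 libraries, 39 were higher and 0 lower. In KO, 16 of 96 were higher and 0 lower, with 8.86% of all genes called higher and 12.2% lower and a snoRNA median of 1.05. Over the same 63 genes, 14 were higher and 0 lower in KO. Of the 16 called in KO, 14 (87.5%) were also called in WT, which is 33.3% of the 42. The difference between the KO and WT steps was tested as an interaction, and limma called 0 of the 96 genes and 0% of all genes for this step in both fits, with 3 snoRNA genes at an unadjusted p under 0.05. With the FPKM as deposited, the all-gene median of the WT step shifted by -0.15 and the share of all calls that were higher was 23.6%, against 41.7% after scaling; the snoRNA median was then 1.20. In KO that share was 23.8% with the FPKM as deposited, against 42.1% after scaling. The fit with separate variances gave 38 of 96 higher in KO and 53 in WT and 0 lower in either, where 9.02% and 11.7% of all genes were called higher and lower in KO and 12.9% and 17.5% in WT. The count was 43 in KO with equal weights, and 26 in WT with a pseudocount of 0.1.

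Snord99, Snora33 and Snora75 had the 3 largest rises. Snord99 had 114.8, 35.9 and 13.7 scaled FPKM in WT E2C embryos, against 2.22, 5.45, 6.95 and 5.58 in WT PN3 zygotes. Snora33 had 53.3, 65.1 and 20.7 at E2C, against 4.45, 6.54, 4.13 and 9.43 at PN3. Snora75 had 25.0, 18.4 and 9.80 at E2C, against 1.45, 2.74, 1.59 and 2.17 at PN3. The groups did not overlap in any of the 3, but the E2C libraries differed several-fold among themselves. The log2 differences were 2.79 ± 0.902, 2.64 ± 0.633 and 2.58 ± 0.537 (SE), with limma adjusted p of 0.0234, 0.00310 and 0.000848. Without WT E2C replicate 1, the Snord99 difference was 2.02 and no longer called.

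This step rests on few libraries that spread widely. The median SD of the snoRNA genes between libraries of a group was 0.65 (log2) in KO E2C embryos and 0.90 in WT E2C embryos, against 0.18 in KO and 0.21 in WT MII oocytes. Many of the genes deviated in the same direction within a library: WT E2C replicate 1 was above its group mean for 75 of 96 genes and WT E2C replicate 3 for 17, and KO E2C replicate 3 was above its group mean for 75 and KO E2C replicate 1 for 16. Leaving out WT E2C replicate 1 gave 14 WT calls in place of 42, and leaving out KO E2C replicate 1 or 2 left 4 called in KO. The KO count was 7 without KO E2C replicate 3, 25 without KO PN3 replicate 1 and 34 without WT E2C replicate 2. Both E2C replicates numbered 3 also had the highest Rn45s, the 45S rRNA precursor, at 10915 scaled FPKM in KO and 7357 in WT, against 812 to 1029 in the other KO and 2208 to 2595 in the other WT E2C libraries. The share of snoRNA genes was the highest of its group in that KO library and the lowest in that WT library, and the part of Rn45s in these results was not tested.

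The last step was that from the early to the late 2-cell embryo, and its counts moved with the fit. In WT, 15 of 96 were higher at L2C than at E2C and 1 was lower, where 34.2% of all genes tested were called higher and 18.3% lower. The median difference was 0.74, against 0.25 for all genes. Among the 77 that reached 1 FPKM in at least 3 E2C libraries, 6 were higher and 1 lower. In KO, 5 were higher and 0 lower, where 26.9% of all genes were called higher and 13.9% lower. Over the same 77 genes, 4 were higher and 0 lower in KO. With a separate variance for each stage, 18 were higher and 0 lower in KO, and 29 higher and 1 lower in WT, where 28.1% and 14.7% of all genes were called higher and lower in KO and 35.1% and 18.8% in WT. The counts of calls were 14 in KO and 26 in WT with the 2 stages fitted alone, 28 in KO and 36 in WT with equal weights, 0 in KO and 5 in WT with TPM, and 0 in KO and 2 in WT with a pseudocount of 0.1. The interaction for this step called 0 of 96 with limma, against 0% of all genes higher and 0.00827% lower, and 5 had an unadjusted p under 0.05. The KO count was 0 without KO E2C replicate 2, 2 without any 1 KO L2C replicate, 3 without KO E2C replicate 1, 8 without KO PN3 replicate 2, 9 without WT L2C replicate 3 and 10 without WT E2C replicate 2.

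The 3 genes with the largest fitted rise were close to 0 at E2C in WT. Snord96a had 8.61, 10.45 and 3.27 scaled FPKM in WT L2C embryos and was listed at 0 in all 3 WT E2C embryo libraries. Snord42b had 7.56, 11.8 and 5.16 at L2C, against 0, 0 and 1.49 at E2C. Snord37 had 3.63, 9.08 and 4.57 at L2C, against 0.301, 0.468 and 0.911 at E2C. Every L2C library was above every E2C library in all 3. The limma adjusted p was 1.54e-05 for Snord96a, 0.00320 for Snord42b and 0.0149 for Snord37, and Snord37 was not called without WT L2C replicate 2. In KO E2C embryos these genes were not at 0: Snord42b had 3.47, 2.56 and 5.93 and Snord96a 0.823, 2.52 and 1.04. Snord96a thus fell short of 1 FPKM in at least 3 E2C libraries. It passed the limit on low values only with libraries of other stages, so it is outside the 77 genes counted above. The gene that fell, Snord123, was listed at 0, 0 and 0.267 in WT L2C embryos, against 2.89, 2.49 and 0.301 in WT E2C embryos, with overlapping values. Its difference of -1.27 ± 0.522 (SE, limma adjusted p = 0.0457) was not called in 8 of 25 single omissions, those of E2C replicates 1 and 2 in both genotypes, of WT L2C replicates 1 and 2 and of KO L2C replicates 2 and 3, with differences down to -0.98. The total of 16 calls was 7 without WT L2C replicate 1 or 2, and 10 without WT E2C replicate 3, KO L2C replicate 2 or both E2C replicates 3.

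Over the whole course, WT means rose at each of the 3 steps for 63 of the 96 genes tested and KO means for 74. The highest stage in WT was L2C for 77 genes, E2C for 18 and MII for 1, and in KO it was L2C for 86 and E2C for 10. These are counts of means, with no test, and they include genes that passed the limit on low values through a late stage.

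The snoRNA genes were next set beside their hosts. For 89 pairs both genes were tested, with 68 hosts. At PN3 against MII in WT the snoRNA median was 0.30 and the host median -0.14. Of these pairs, 32 had a snoRNA gene that rose. Among them 6 had a host that rose, 15 a host that fell and 11 a host that was not called. Of all 68 hosts, 9 rose and 28 fell, where 19.2% of all genes tested rose and 26.0% fell. At E2C against PN3 the snoRNA median was 1.35 and the host median 0.10. Of the 40 snoRNA genes that rose, 12 had a host that rose and 7 a host that fell. Of all 68 hosts, 14 rose and 17 fell, where 12.9% of all genes rose and 18.0% fell. At L2C against E2C the order was the other way: the host median was 1.54 and the snoRNA median 0.76. In 55 pairs the host rose while the snoRNA gene was not called. Of all 68 hosts, 50 rose and 5 fell, where 34.2% of all genes rose and 18.3% fell. The median SD (log2) of the snoRNA genes was 0.90 in WT E2C and 0.61 in WT L2C embryos, against 0.38 and 0.35 for all genes. A snoRNA gene that was not called is therefore not shown to be unchanged. Pearson's r across the 89 pairs was -0.14, 0.15 and 0.22 at the 3 WT steps, a description of pairs that share libraries and in part hosts.

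**Figure D3:**
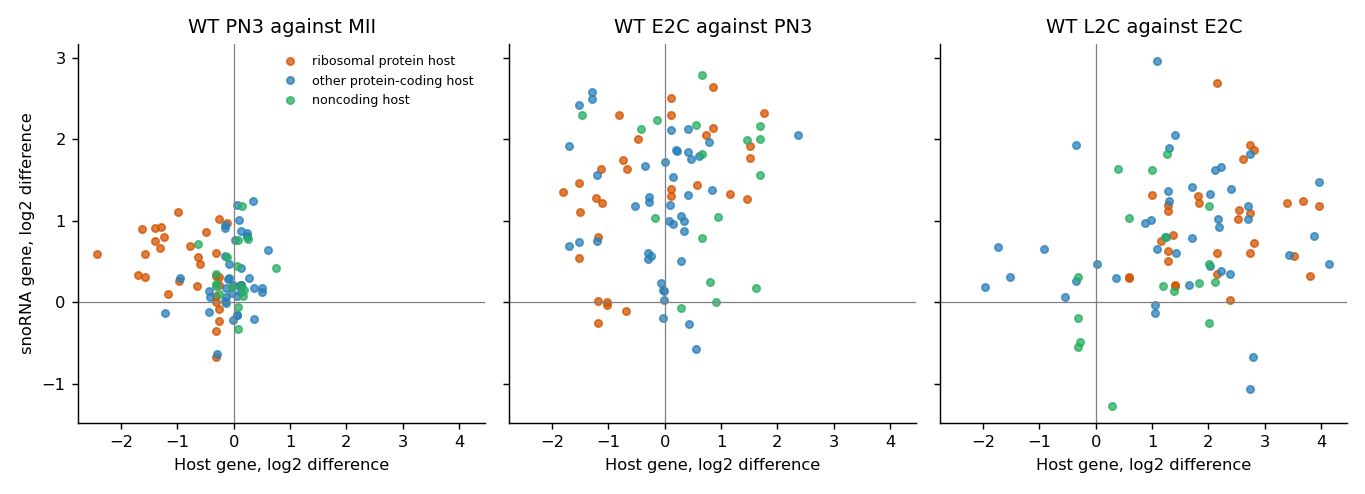
Each point is 1 of 89 snoRNA genes, with its log2 difference (vertical axis) against that of its host gene (horizontal axis) at the 3 successive WT steps, coloured by the class of host. At the first 2 steps most points lie above 0 on the vertical axis on both sides of the horizontal 0, and at the last step most lie to the right of it.

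Ribosomal protein genes were the largest class of hosts with a shared function. At PN3 against MII in WT, the 30 snoRNA genes in these hosts had a median of 0.51 and the 22 hosts a median of -0.88, with 21 hosts lower, where 26.0% of all genes were. At E2C against PN3 the medians were 1.42 and -0.71. At L2C against E2C they were 0.92 and 2.45, with 19 of 22 hosts higher, where 34.2% of all genes were. The ratio of snoRNA to host level, both per length, was taken over hosts of all classes, not ribosomal protein genes alone. Pairs needed a host mean above 0 and did not have to be tested, which gave 98 to 101 pairs per group. The median ratio over pairs was 0.0332 in KO and 0.0343 in WT oocytes, and 0.0967 in KO and 0.0867 in WT zygotes. It was 0.281 in KO and 0.380 in WT E2C embryos, and 0.224 in KO and 0.250 in WT L2C embryos.

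The 3 highest snoRNA genes and their hosts are given by library. Rps3, a protein of the small ribosomal subunit and host of Snord15b, had 0.760, 0.714, 0.921 and 0.726 scaled FPKM in WT PN3 zygotes, against 3.92, 3.28 and 3.89 in WT MII oocytes. Snord15b had 65.4, 44.1, 40.1 and 57.3 at PN3, against 25.6, 32.2 and 32.3 at MII. Host and snoRNA thus moved in opposite directions with no overlap in either, by -1.40 and by 0.75 (limma adjusted p = 9.09e-10 and 9.44e-05). Zbed3, host of Snora47, was an abundant RNA that rose by 0.62 to PN3 and by 0.78 to E2C and fell by 1.97 to L2C in WT (limma adjusted p = 3.62e-08, 0.00226 and 3.36e-07). Snora47 rose by 0.64 and 1.97 at the first 2 steps (adjusted p = 0.000516 and 0.000501), and its difference at the last was 0.19 ± 0.502 (SE, adjusted p = 0.784). Snhg1, a noncoding host with several snoRNAs, was not called at the first 2 steps (0.16 and -0.42) and rose by 2.12 at the last (adjusted p = 0.00156), whereas Snord22 rose by 1.18 and 2.12 at the first 2 and differed by 0.25 ± 0.487 (SE, adjusted p = 0.701) at the last.

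**Figure D4:**
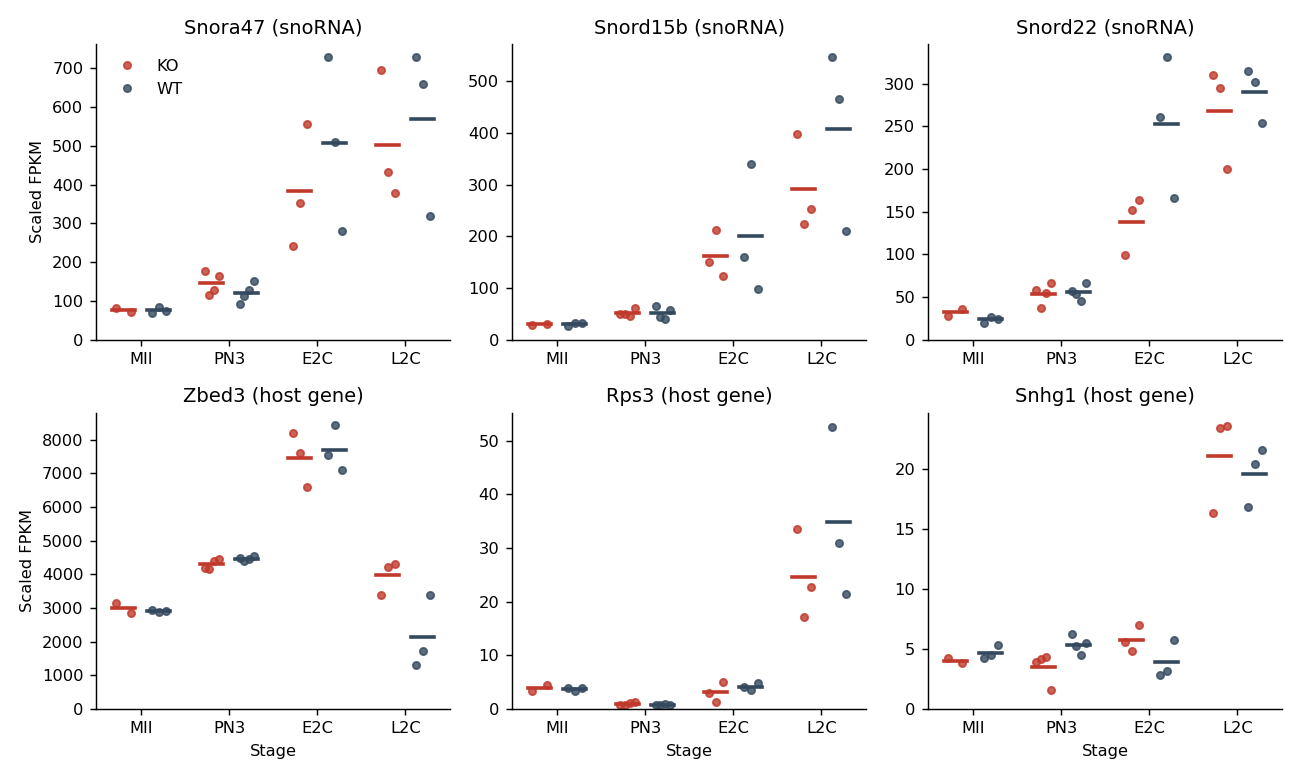
Scaled FPKM (vertical axes, from 0) of Snora47, Snord15b and Snord22 in the upper row and of their hosts Zbed3, Rps3 and Snhg1 in the lower row, by stage; points are libraries and bars group means, KO in red and left of WT in dark blue. All 3 snoRNA genes are higher at E2C than at PN3, Rps3 is lowest at PN3, Zbed3 is highest at E2C and Snhg1 is highest at L2C.

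A host was shared with at least 1 other by 48 snoRNA genes. These sets were chosen after their values were seen. Rpl13a holds Snord32a, Snord33, Snord34 and Snord35a, of which U32a, U33 and U35a are known from hamster cells for a part in lipotoxic stress. Their levels in WT E2C embryos were 16.6, 4.49 and 5.61 scaled FPKM for Snord32a, 100.4, 60.2 and 28.3 for Snord33, 28.1, 9.80 and 9.04 for Snord34, and 6.41, 9.88 and 1.79 for Snord35a. Snord33 was thus the highest of the 4 in every WT E2C library, as in every WT L2C library. Their log2 differences at E2C against PN3 were 1.31, 2.30, 2.51 and 1.40, all but that of Snord32a called, against 0.12 for Rpl13a, which was not called. In Ncl, the gene of nucleolin, Snora75 and Snord82 had differences of 2.58 and 2.49 at that step, while Ncl fell by 1.29 (adjusted p = 4.29e-05). In Snhg12, Snord99 was the highest of its 3 in every WT MII library, with 5.52, 4.55 and 4.90 scaled FPKM in MII oocytes, against 0.408, 0.565 and 0.360 for Snora44 and 0.787, 0.148 and 0.197 for Snora61.

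KO and WT were compared at each stage, the question being whether these genes differ when maternal Smarca4 is deleted. At MII, 1 snoRNA gene, Snora44, was higher in KO under each fit with a variance of its own for the stage. The weighted fit called 5 of the 96 snoRNA genes higher in KO and 0 lower, where 5.97% of all genes tested were called higher and 6.95% lower, so the share called higher (5.21%) was near that of all genes. With FPKM as deposited, 26.5% of all calls were higher in KO, against 46.2% after scaling. The fit with a separate variance for the stage called 1.33% of all genes higher and 1.83% lower. Snora44 had 1.91 and 1.37 scaled FPKM in KO oocytes, against 0.408, 0.565 and 0.360 in WT oocytes. It was below 1 FPKM in every WT MII library and passed the limit on low values only with libraries of other stages. Snora30 had 3.57 and 4.50, against 3.14, 2.33 and 2.02. Snora2b had 2.42 and 1.46, against 1.20, 0.783 and 1.04. In these 3 both KO libraries were above all WT libraries. The same held for Snora34, with 3.87 and 3.54 in KO oocytes, against 1.97, 2.91 and 2.46 in WT oocytes, and for Snord22, with 28.1 and 35.5, against 20.0, 26.9 and 24.6. The log2 differences were 0.86 ± 0.189 for Snora44, 0.53 ± 0.150 for Snora30, 0.54 ± 0.155 for Snora2b, 0.46 ± 0.148 for Snora34 and 0.40 ± 0.127 for Snord22 (SE). Their limma adjusted p-values were 0.00361, 0.0206, 0.0240, 0.0432 and 0.0398. They were 0.0253, 0.109, 0.115, 0.0975 and 0.169 with a separate variance for the stage, so 4 of the 5 calls were lost.

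The hosts of these 5 genes were mostly not called at MII. Srcap, a chromatin remodeller with Snora30 in an intron, differed by 0.19 (limma adjusted p = 0.0340, and 0.138 with a separate variance for the stage). Kansl2, which holds both Snora2b and Snora34, differed by -0.03, Snhg12 by 0.02 and Snhg1 by -0.18, none of them called. Snhg12, host of Snora44, had 0.176 and 0.0808 scaled FPKM in KO oocytes, against 0.172, 0.0164 and 0.145 in WT oocytes. At such levels log2(scaled FPKM + 1) hardly moves, so its difference does not show whether Snhg12 changed. In the weighted fit Snora44 stayed called in all 25 single omissions, with differences of 0.72 to 1.01. The other 4 were each lost in 3 to 7 omissions, and the count of 5 was 2 without WT MII replicate 2, 3 without WT MII replicate 1 or 3, and 8 without KO MII replicate 2. With equal weights for all libraries 0 were called by limma. Summed oocyte markers were 2409 to 2507 scaled FPKM in KO oocytes, against 2209 to 2244 in WT oocytes, summed sperm markers 7.60 to 8.41 in KO oocytes, against 5.88 to 6.82 in WT oocytes, and cumulus and granulosa markers 5.13 to 5.33 in KO oocytes, against 5.73 to 6.56 in WT oocytes. None of these ranges of sums overlapped, but taken singly Bmp15, Zp3 and Nlrp5 overlapped between KO and WT oocytes. Limma called 1 of the 6 oocyte markers higher in KO and 0 lower, where 5.97% and 6.95% of all genes were. Of the 7 cumulus and granulosa markers 1 passed the limit on low values, as did 1 of the 5 sperm markers. The part of these sums in the differences was not tested.

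At the later stages limma called 0 of the 96 genes between KO and WT in the weighted fit and in that with a separate variance for each stage. In the second fit, 0.405% of all genes at PN3 were called higher and 0.372% lower, and at E2C and L2C 0%. At PN3, where 1.79% of all genes were called higher and 1.27% lower, 11 snoRNA genes had an unadjusted p under 0.05 and the median difference was 0.12. The share of all calls that were higher in KO was 58.4% at PN3 and 57.6% at L2C, against 47.8% and 79.1% with TPM. At E2C, with 0% of all genes called higher and 0.00827% lower, these values were 3 and -0.17, and at L2C, with 0.439% called higher and 0.323% lower, 7 and -0.25. With the wide spread of the 2-cell libraries, single differences between -1.77 and 1.82 at E2C and between -1.68 and 1.51 at L2C did not pass the test. With equal weights for all libraries, 1 gene was called at E2C and 7 at L2C (2 higher and 5 lower), and without WT L2C replicate 3 5 were called at L2C. Whether the KO effect differed between PN3 and MII was tested as an interaction, and limma called 0 of the 96 in the weighted fit. This does not show the effects to be equal. In that fit 8 snoRNA genes had an unadjusted p under 0.05, where 1.39% of all genes were called higher and 0.902% lower. Of all calls 60.6% were higher, against 75.3% with FPKM as deposited. A separate variance for each stage also gave 0 of the 96, where 0.794% of all genes were called higher and 0.472% lower. For the 5 genes called at MII, this interaction ranged from -0.54 for Snora44 to -0.13 for Snora30, with adjusted p of 0.270 or more. Without KO MII replicate 2, 4 genes were called by this interaction.

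**Figure D5:**
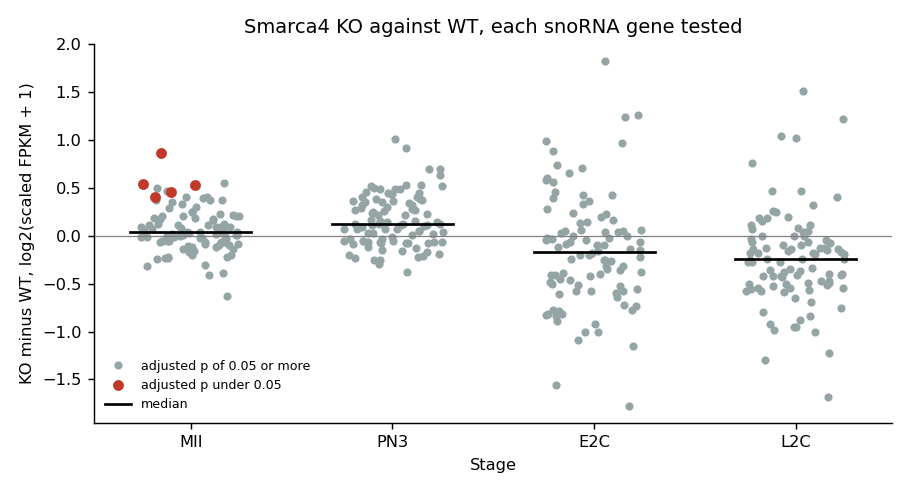
KO minus WT difference of each of the 96 snoRNA genes tested, in log2(scaled FPKM + 1), at 4 stages; red points have an adjusted p under 0.05 in the weighted fit, grey points do not, and black bars are medians. The 5 red points are all above 0 at MII, and the spread of the grey points widens at E2C and L2C.

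The mRNAs of proteins of the snoRNP particles were examined at the same steps. Fbl, Nop56, Nop58 and Nhp2l1 form the box C/D particle, and Dkc1, Nhp2, Nop10 and Gar1 the H/ACA particle. In WT at E2C against PN3, 2 of the 4 C/D proteins fell and 0 rose, namely Nop56 by 1.51 and Nop58 by 1.21, and of the H/ACA proteins Dkc1 fell by 1.30 and Nhp2 by 0.92 while Nop10 rose by 1.35, where 12.9% of all genes rose and 18.0% fell. The call of Nhp2 was lost with a separate variance for each stage (adjusted p = 0.0929). At L2C against E2C all 4 C/D proteins rose, as did Dkc1, Nhp2 and Gar1, where 34.2% of all genes rose and 18.3% fell. Fbl, the methyltransferase, had 92.8, 106.5 and 52.9 scaled FPKM in WT L2C embryos, against 8.80, 1.98 and 5.40 in WT E2C embryos, a log2 difference of 3.84 ± 0.376 (SE, limma adjusted p = 2.01e-08). Dkc1, the pseudouridine synthase, had 83.9, 70.2 and 55.5, against 12.3, 8.66 and 20.1, a difference of 2.33 ± 0.377 (adjusted p = 1.93e-05). Of 10 assembly factors, 8 rose and 0 fell at this step, and of 6 release and trimming factors 4 rose and 1 fell. In KO against WT at MII, where 6.95% of all genes were called lower, limma called Nop56, with a difference of -0.24 (adjusted p = 0.00568), and Aqr, a helicase that binds introns, with -0.18 (adjusted p = 0.0457). Neither was called with a separate variance for the stage (adjusted p = 0.0888 and 0.215).

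Other short noncoding RNAs were counted in the same way. Of 9 Cajal body RNA genes (Scarna) tested, 5 rose and 0 fell in WT at PN3 against MII, 6 rose and 0 fell at E2C against PN3, and 1 rose and 0 fell at L2C against E2C, where 19.2%, 12.9% and 34.2% of all genes rose and 26.0%, 18.0% and 18.3% fell. Of 7 other short noncoding RNAs tested, 5, 5 and 2 rose at these steps and 0 fell. Rmrp, the RNA of an endonuclease that cleaves pre-rRNA, had 37.6, 82.2 and 32.2 scaled FPKM in WT E2C embryos, against 4.28, 3.25, 1.82 and 3.84 in WT zygotes, with no overlap and a difference of 3.503 ± 0.417 (SE, limma adjusted p = 1.08e-06). At MII these lists also held genes called higher in KO, as 5.97% of all genes were. Scarna2 had 6.28 and 7.34 scaled FPKM in KO oocytes, against 2.998, 3.28 and 3.57 in WT oocytes, and the vault RNA Vaultrc5 had 72.1 and 72.6, against 50.4, 51.3 and 51.2. KO and WT libraries did not overlap for either gene, and the differences were 0.87 ± 0.212 for Scarna2, 0.51 ± 0.155 for Scarna8, 0.56 ± 0.142 for Rmrp and 0.50 ± 0.113 for Vaultrc5 (SE), with limma adjusted p of 0.00886, 0.0330, 0.00983 and 0.00480. These were 0.0168, 0.151, 0.0648 and 0.0132 with a separate variance for the stage, so Scarna2 and Vaultrc5 remained called. Rmrp had 1.09 and 1.57 scaled FPKM in KO oocytes, against 0.428, 0.558 and 0.743 in WT oocytes. It therefore passed the limit on low values only with libraries of other stages.

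The rRNA precursor Rn45s rose from oocyte to zygote in WT. It had 530.0, 478.3, 1033 and 772 scaled FPKM in WT PN3 zygotes, against 284.7, 309.4 and 314.1 in WT MII oocytes, a difference of 1.15 ± 0.229 (SE, limma adjusted p = 0.000303). In KO it had 747.2, 463.1, 713.3 and 963.3 at PN3, against 324.2 and 317.2 at MII, with no overlap in either genotype. In E2C embryos it had 812, 1029 and 10915 in KO and 2595, 2208 and 7357 in WT. The WT difference between E2C and PN3 was 2.37 ± 0.642 (SE), called in the weighted fit (limma adjusted p = 0.00798) and not with a separate variance for each stage (adjusted p = 0.0816). The libraries were depleted of rRNA before sequencing, so these values are of what the depletion left.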

How the data were processed

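RNA was sequenced in 25 libraries of 8 groups. The deposited files hold 1 FPKM value per symbol and library, as made by the authors. Per the submitters' processing notes, HTSeq, StringTie, HISAT2 and Trim Galore 0.4.5 took part, with builds named as GRCm38 and mm10, and the tool that made the values is not stated. The values are fractional, so whole reads could not be recovered and depth is unknown.

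Libraries were scaled by their median ratio over 6492 genes to the geometric mean of each, the genes being those of at least 1 FPKM in all libraries. Genes of at least 1 FPKM in at least 3 libraries (12086 of 24412, with 96 of the 110 snoRNA genes) were fitted as log2(scaled FPKM + 1), a scale that understates changes of low genes, with limma 3.58.1 in R 4.3.3. The fit had 8 group means, 17 residual degrees of freedom, a variance weight for each stage and a robust prior following the mean, and p-values were adjusted over all genes tested (threshold 0.05). Weights per stage were used because libraries of the 2-cell stages spread more widely. On simulated data with each gene's own spread at each stage, this fit found known changes but made more false calls than its threshold allows in every comparison. Fits of the contrast's stages alone stayed near the threshold except for E2C against PN3, and equal weights failed at the 2-cell stages. A fit that moderates the variance within each stage and combines stages with Satterthwaite degrees of freedom, added after seeing the data, came nearer to the threshold in every comparison, still above it in most, so its calls are given beside those of the weighted fit. Genes, hosts and sequences were taken from GENCODE vM21 (GRCm38) and 109 symbols were also found in RefSeq. Named genes were those called between KO and WT, the 3 highest per stage, the 3 largest rises and falls called per WT step, RNAs with a known part in pre-rRNA cleavage, and their hosts; same-host sets were added. The members and lists were chosen with earlier results of these data known. Alternatives were other scalings, a pseudocount of 0.1, no limit on low values, equal weights, single stages, a separate variance for each stage, a replicate block and leaving out each library. Figures used matplotlib 3.10.9.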

Additional observations from a re-analysis of the deposited data

Results flagged for a closer look

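In 38 sets of values from groups of 4 libraries, 2 held a library that stood far from the other 3. The limit was a gap of more than 0.829 of the group's range. For normally distributed values chance gives this in about 1 set in 20. That rate does not hold where the other 3 values are 0, as any value above 0 then stands apart. Snord123 had 0.654 scaled FPKM in WT PN3 replicate 4, against 0.157 to 0.179 in the other 3 WT zygote libraries. Snord42b had 0.722 in KO PN3 replicate 4 and was listed at 0 in the other 3 KO zygote libraries. Both genes had low values at this stage, and the cause was not tested.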

How the results depend on the processing

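None of the 17 named snoRNA differences turned its direction under the alternatives, where 511 of their values kept their side of the threshold and 67 lost it; hosts, snoRNP mRNAs, Scarna genes and Rn45s were refitted only with a separate variance for each stage. The snoRNA median of the L2C interaction was -0.02 with TPM, against 0.01. Leaving out each library in turn, calls numbered 2 to 8 for KO against WT at MII, 0 to 0 at PN3 and E2C and 0 to 5 at L2C; 25 to 39, 14 to 48 and 7 to 19 for the 3 WT steps; 25 to 43, 4 to 34 and 0 to 10 for the KO steps; and 0 to 4, 0 to 0 and 0 to 2 for the interactions. With equal weights, calls were 0 at MII, 1 at E2C and 7 at L2C for KO against WT, 8 for WT PN3 against MII, 36 for WT L2C against E2C, 1, 43 and 28 for the KO steps and 3 for the last interaction. With single stages fitted alone and equal weights they were 1 for KO against WT at MII, 26 for WT L2C against E2C, and 18, 39 and 14 for the KO steps. With a separate variance for each stage they were 1 for KO against WT at MII, 30 for WT L2C against E2C, and 38 and 18 for KO E2C against PN3 and L2C against E2C. With FPKM as deposited they were 3 for KO against WT at MII and 8 for KO L2C against E2C. With TPM they were 5 for WT and 0 for KO L2C against E2C and 1 for the interaction of PN3 with MII. With a pseudocount of 0.1 they were 26 for WT E2C against PN3, 2 for WT and 0 for KO L2C against E2C and 1 for that interaction. With no limit on low values they were 3 for KO against WT at MII, 10 for WT and 1 for KO L2C against E2C. Without both E2C replicates 3 they were 10 for WT L2C against E2C and 7 for KO E2C against PN3. The labels do not say that a replicate number marks a shared animal or day, and deviations of same-numbered KO and WT libraries correlated between -0.18 and 0.43 (0.01, 0.37, 0.11 and 0.43 at PN3), so the numbers were not taken as pairs; as a hint from the data, at E2C every library correlated best with its own number. With the replicate block, calls were 2 for KO against WT at MII, 3 at PN3 and 2 for the interaction of PN3 with MII. Depth is unknown, so counting error of low genes could not be given. The cause of these shifts was not tested.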
